A study of Mus musculus with 2 samples.

Results

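Solute carrier genes were examined in the immune cells of the mouse dorsal root ganglion (DRG), the cluster of sensory neuron cell bodies beside the spinal cord. The members were the gene symbols made of Slc and a family number that held at least 20 unique molecular identifiers (UMIs, each 1 captured mRNA molecule) over all cells of the deposited matrix, with Slc40a1 and Slc11a1 left out. Of 16819 symbols, 275 had such a name, 75 of these were under 20 UMIs, and 198 were kept. The UMI totals over all cells chose the members, and Slc52a3 and Slc25a29 at 20 and Slc24a3 at 21 UMIs lay just inside the minimum and Slc25a42 at 19 just outside. The mice were naive wild-type BALB/cAnNRj animals, 3 male and 3 female, with no treatment group, and per the study's methods the mice used were 7 weeks or older. Per the labels, about 40 ganglia of the neck, chest and lower back were pooled per preparation, digested with enzymes at 37°C and sorted for CD45, a surface protein of immune cells, and against the dead-cell dye DAPI. A hashtag antibody marked the cells of each mouse, and all mice shared 1 lane of droplets. The deposited matrix held 481, 772 and 1415 cells of male mice 1, 2 and 3, from which the levels below come unless female mice are named.

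Solute carriers are membrane proteins that move small molecules such as sugars, amino acids, nucleosides, metal ions and lactate across the cell surface and across the membranes of organelles. The name is given by sequence family, so that carriers of mitochondria, lysosomes and the Golgi stand beside carriers of the cell surface, and a few symbols with the same prefix belong to scaffold proteins or antisense transcripts. In immune cells, these proteins are known for feeding glycolysis, for exporting lactate, and for handling the peptides and nucleosides set free when macrophages digest what they engulf.

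The start sites of 3 carriers that will recur below, the macrophage carrier Slc15a2, the neutrophil carrier Slc27a4 and the B cell carrier Slc12a3, are shown by the 250 bases before the RefSeq start on the gene's own strand in GRCm38.p6. Capitals mark GAGGAA, the core bound by PU.1, the factor of myeloid and B cells, searched on both strands.
Slc15a2, chr16:36784963-36785212, minus strand: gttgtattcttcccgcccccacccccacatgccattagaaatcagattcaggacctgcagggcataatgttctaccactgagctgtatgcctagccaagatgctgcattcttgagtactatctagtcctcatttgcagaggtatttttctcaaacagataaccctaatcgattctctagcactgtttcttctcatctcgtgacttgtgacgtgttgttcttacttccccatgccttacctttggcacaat
Slc27a4, chr2:29802384-29802633, plus strand: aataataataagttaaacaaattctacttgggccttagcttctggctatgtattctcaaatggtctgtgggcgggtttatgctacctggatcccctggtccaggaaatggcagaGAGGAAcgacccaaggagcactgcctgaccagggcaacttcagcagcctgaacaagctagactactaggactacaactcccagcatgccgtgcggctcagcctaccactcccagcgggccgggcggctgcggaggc
Slc12a3, chr8:94328958-94329207, plus strand: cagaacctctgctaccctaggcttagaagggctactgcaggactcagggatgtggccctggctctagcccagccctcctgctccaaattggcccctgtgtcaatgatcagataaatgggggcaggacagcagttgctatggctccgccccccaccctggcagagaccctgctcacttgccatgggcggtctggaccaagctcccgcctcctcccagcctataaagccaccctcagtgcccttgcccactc
The same window was found for 15 of the carriers named below as most specific to a type, and 3 of the 15 held GAGGAA, namely Slc27a4, Slc25a5 and Slc22a15. The motif stood in 17.4% of the 201 promoters of members and in 23.3% of 32851 promoters of all genes. TTGCNNAA, a core bound by C/EBP factors, stood in none of the 15, in 6.47% of the promoters of members and in 9.56% of all, with both motifs searched separately on both strands.

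Clustering without any Slc symbol gave 1490 macrophages, 565 neutrophils, 139 T and NK cells, 135 B cells, 107 monocytes and 99 dendritic cells (DCs), and 133 cells stood outside these 6 types. Levels are given as CPM, the UMIs of a gene per 1000000 UMIs of 1 type in 1 mouse, scaled by TMM factors, which correct for a few genes that take a large share of the RNA. Every marker on a type's own list had UMIs in that type, but this sets no type apart, since all 8 macrophage markers had UMIs in every type. Their sum was 20440 to 23200 CPM in macrophages and at most 1158 CPM elsewhere. Against all other cells, other macrophages included, 8 of the 8 were raised in the macrophage cluster of 745 cells. In those of 581, 79, 74 and 11 cells it was 0, 4, 1 and 4. The 4395 barcodes before demultiplexing held 51 that a doublet caller marked, 10 of them among the male cells. The median cell held 8283.5 UMIs, between 7336.5 and 9137 by mouse. Free RNA was low: S100a8, a neutrophil gene, stood in the other types at 0.0769% to 1.37% of its neutrophil level, and C1qa at 0.558% to 2.08% of its macrophage level. The neutrophil marker list summed to 1022 to 14020 CPM in the monocytes of the 3 mice and to at most 2038 CPM in the other types outside neutrophils.

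The 198 carriers gave 97507 UMIs, or 0.417% of all, with a median of 184 per gene and a range of 20 to 8239. They made up 0.517% ± 0.0205 of the RNA in monocytes and 0.510% ± 0.0153 in B cells, which did not differ beyond their spread, and the smallest share in neutrophils, at 0.304% (SD, n = 3 mice each). These are shares of all UMIs without TMM scaling. In neutrophils S100a8 and S100a9 alone stood at 242400 and 332700 scaled CPM, and the part of such genes in the low neutrophil share was not tested. Macrophages held the highest mean level for 56 carriers, neutrophils for 34, B cells for 32, T and NK cells for 30, monocytes for 24 and DCs for 22. In 23 of the 56, 19 of the 34, 10 of the 32, 4 of the 30, 3 of the 24 and 7 of the 22, the same type was highest in each of the 3 mice. These counts depended on the scaling, since without the TMM factor they were 46 for macrophages, 16 for neutrophils, 45 for B cells, 43 for T and NK cells, 32 for monocytes and 16 for DCs. The share of all genes highest in each type is not given here, so the counts describe no trait of carriers. Macrophages held 13118686 of the 23403638 UMIs, so a scarce carrier reached the minimum of 20 UMIs most readily through them. A total of 61 carriers had no UMI in at least 1 type. At this depth, 3 UMIs over all cells of a type correspond to between 0.243 CPM in macrophages and 5.13 CPM in B cells, so that a 0 in B cells says less than a 0 in macrophages.

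The carriers at the top by UMIs were mitochondrial. Slc25a3, the mitochondrial phosphate carrier, had 8239 UMIs, and Slc25a5, which trades ADP for ATP across the inner mitochondrial membrane, had 7920. Slc25a3 lay between 256 ± 25.5 CPM in neutrophils and 515 ± 46.1 CPM in DCs (SD, n = 3), with monocytes next at 494 ± 18.4 CPM and highest without the TMM factor. Slc38a2, an importer of glutamine and other small neutral amino acids, followed with 5965 UMIs and reached 549 ± 67.1 CPM in T and NK cells against 197 ± 8.42 CPM in macrophages, with B cells beside them at 533 ± 43.2 CPM and ahead without the factor (690 against 675 CPM). Another pair was highest in macrophages, Slc15a3, a lysosomal carrier of peptides and histidine (4203 UMIs), and Slc3a2, the heavy chain that amino acid exchangers need to reach the surface (4010 UMIs). Slc3a2 stood at 244 ± 8.98 CPM in macrophages and between 67.2 and 155 CPM in the other types. Slc9a3r1, a scaffold that anchors transporters and is no carrier itself, had 2697 UMIs and its highest scaled level in neutrophils (288 ± 28.8 CPM), whereas without the TMM factor it was higher in T and NK cells (214 against 173 CPM). Slc25a4, a second ADP/ATP carrier with 2691 UMIs, was at 22.4 ± 9.32 CPM in neutrophils and between 104 and 165 CPM in the other 5 types. The taurine carrier Slc6a6 (2341 UMIs) lay between 96.3 and 134 CPM in the 4 myeloid types and at 21.6 ± 14.5 CPM in B cells and 19.4 ± 10.8 CPM in T and NK cells. Slc25a11, the oxoglutarate/malate carrier (1912 UMIs), was at 142 ± 30.9 CPM in neutrophils and between 54.5 and 85.9 CPM elsewhere, yet without the factor it was highest in monocytes (98.1 against 84.5 CPM).

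Each type was then set against the mean of the other 5 with edgeR's quasi-likelihood test on the summed UMIs, in which 65 of the 198 carriers passed the filter on low counts. A carrier that passes only through the type where it is high had to differ, and the types were drawn from the same cells, so these counts describe the cells and test nothing. The share of all 6072 genes with the same call is given beside each. In macrophages, 23 carriers were called higher and 11 lower, which is 35.4% and 16.9% of the 65, beside 30.0% and 22.1% of all genes. In monocytes it was 19 higher and 3 lower, beside 19.8% and 11.4% of all genes. In DCs it was 15 and 9, beside 22.0% and 12.7%. In neutrophils it was 24 and 24, beside 34.1% and 31.7%. In B cells it was 16 and 16, beside 19.9% and 18.5%, and in T and NK cells 11 and 11, beside 20.1% and 16.0%. The shares were near those of all genes for most types, with the widest gap for monocytes, where 29.2% of the carriers were called higher. The median log2 difference of the 65 lay between -0.51 in B cells and 0.16 in macrophages, beside -0.06 to 0.07 for all genes. Without the TMM factor the median of all genes moved by -0.91 in neutrophils, 0.45 in B cells and 0.36 in T and NK cells on the log2 scale. The calls then split into 13 higher and 35 lower in neutrophils, 19 and 10 in B cells, and 23 and 10 in T and NK cells.

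Grouped by what they carry, the carriers of lactate, nucleosides, peptides and chloride differed several-fold between types. The 7 chloride cotransport carriers summed to 181.5 ± 41.9 CPM in B cells, 26.5 ± 9.44 in T and NK cells and at most 84.0 elsewhere. B cells stayed the highest without the TMM factor, at 236 against 88.7 CPM in monocytes. The 6 carriers of lactate and other monocarboxylates summed to 734 ± 160 CPM in neutrophils, 216 ± 47.1 in monocytes, 123 ± 7.25 in macrophages and between 35.7 and 72.9 in DCs, B cells and T and NK cells. Neutrophils stayed the highest without the TMM factor, at 436 against 246 CPM in monocytes. Slc16a3 alone gave 680 CPM of the neutrophil sum, and without it the other 5 summed to 53.4 ± 11.5 CPM in neutrophils, below macrophages (113.5 ± 6.23) and monocytes (105 ± 20.9). The group follows the family number, so it also holds Slc16a10, a carrier of aromatic amino acids. The 3 carriers of peptides and histidine, Slc15a2, Slc15a3 and Slc15a4, summed to 418 ± 36.7 CPM in macrophages and to 13.6 ± 7.56 CPM in T and NK cells. The 3 nucleoside carriers summed to 163 ± 10.8 CPM in macrophages and to between 30.5 and 56.3 CPM elsewhere. Their leading member Slc29a1, named after its values were seen, which lets nucleosides equilibrate across the cell surface, had 1404 UMIs, of which 1176 were in macrophages (92.9 ± 5.15 CPM).

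**Figure D1:**
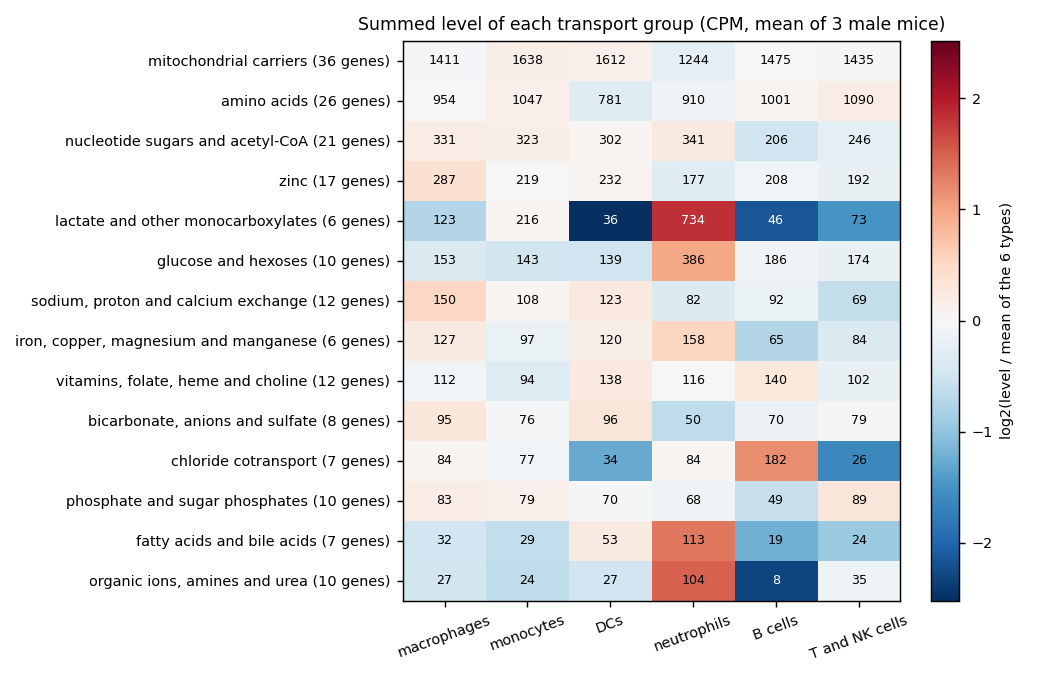
Summed level of the carriers in each of the 14 transport groups with at least 5 members, by cell type. Each number is the mean of 3 male mice in TMM-scaled CPM and the colour is the log2 ratio of that level to the mean of the 6 types, and the lactate group stands out at 734 CPM in neutrophils against 35.7 CPM in DCs.

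Neutrophils also led the carriers of fatty acids and bile acids, at 113 ± 12.9 CPM beside 52.9 ± 20.3 CPM in DCs, and those of organic ions and amines, at 104 ± 10.7 CPM beside at most 34.6 ± 17.6 CPM elsewhere. Both orders held without the factor. The 10 glucose and hexose carriers summed to 386 ± 67.5 CPM in neutrophils and to at most 186 CPM elsewhere, yet without the factor the neutrophil sum of 232 CPM was below the 241 CPM of B cells. Slc2a1, the glucose carrier of most cells, was at 50.9 ± 16.5 CPM in neutrophils, 49.8 ± 8.15 CPM in DCs and 15.3 to 28.3 CPM in the other types, so neutrophils and DCs did not differ beyond their spread, and without the factor DCs were ahead (48.8 against 30.4 CPM). Slc2a3, a high-affinity glucose carrier, which was chosen after its values were seen, stood at 190, 285 and 248 CPM in neutrophils, and the next type, T and NK cells, reached 48.95 ± 23.2 CPM. In the iron, copper, magnesium and manganese group the copper carrier Slc31a2 led, with 118, 119 and 121 CPM in neutrophils against 51.5 ± 16.1 CPM in DCs. The sum of that group was highest in neutrophils with the factor, at 158 CPM, but in DCs and macrophages, at 118 and 119 CPM, without it, against 94.3 CPM.

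Large groups differed less. The 36 mitochondrial carriers summed to between 1244 ± 86.2 CPM in neutrophils and 1638 ± 31.7 CPM in monocytes, and the 26 amino acid carriers to between 781 ± 45.1 CPM in DCs and 1090 ± 36.5 CPM in T and NK cells. Without the factor the ranges were 745 CPM in neutrophils to 1910 CPM in B cells and 546 CPM in neutrophils to 1341 CPM in T and NK cells. The 21 carriers of nucleotide sugars, which supply the Golgi, lay between 206 and 341 CPM, with Slc35b2, the Golgi carrier of the sulfate donor, highest in macrophages at 56.7 ± 0.757 CPM. Zinc carriers summed to 287 ± 7.52 CPM in macrophages and 177 ± 27.7 CPM in neutrophils, led by the surface importer Slc39a1, which was at 79.2 ± 5.21 CPM in macrophages and at 12.97 ± 3.19 CPM in neutrophils. The bicarbonate carrier Slc4a7 was at 59.7 ± 12.5 CPM in DCs and 13.5 ± 1.61 CPM in neutrophils. The phosphate importer Slc20a1 was at 36.2 ± 8.96 CPM in T and NK cells, 34.1 ± 11.97 in DCs and 32.1 ± 13.8 in monocytes, which did not differ beyond their spread, and had 1 UMI in B cells. Slc7a5, an importer of large neutral amino acids, had 181 UMIs in all and stood at 21.9 ± 6.91 CPM in T and NK cells, its highest level.

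At least 30 UMIs in a type and the highest level there in each mouse were met by 21 carriers in macrophages and 17 in neutrophils. In B cells it was 6, in monocytes 3, in DCs 2 and in T and NK cells 1. Up to 5 per type, those with the largest log2 ratio to the next type, were named as most specific, which gave 21 named carriers. The male levels chose these carriers and are given as a description. The macrophage list was Slc15a2, Slc18b1, Slc7a13, Slc9a9 and Slc13a3. Slc15a2 imports di- and tripeptides together with protons. It lies on chromosome 16 (GENCODE M21 on GRCm38, minus strand, chr16:36750177-36784962) and stood at 98.3, 104 and 75.4 CPM in the macrophages of mice 1, 2 and 3, from 1068 of its 1093 UMIs. Monocytes, DCs and T and NK cells held no UMI of it, so that macrophages were at least 38.3-fold, 39.8-fold and 23.9-fold higher, set against 3 UMIs over the type. Neutrophils held 5 UMIs and B cells 2, with a macrophage to B cell ratio of 25.3 (exact 95% interval 6.98 to 209, counting error only). The endosomal sodium/proton exchanger Slc9a9 was at 70.9, 66.6 and 64.4 CPM in macrophages, above all other types in every mouse, with T and NK cells (18.1 ± 3.80 CPM) and DCs (17.7 ± 1.49 CPM) next and not apart from each other. Slc18b1, the vesicular polyamine carrier, Slc7a13, which carries aspartate and glutamate, and Slc13a3, a sodium-coupled importer of dicarboxylates, were scarce, at 4.10 ± 0.303, 2.63 ± 0.616 and 4.30 ± 1.56 CPM. For Slc18b1 and Slc7a13, all 50 and 30 UMIs of the 6 types were in macrophages, yet in B cells that level was under the floor of 3 UMIs and a difference was not detectable at this depth. The same held for Slc7a13 in T and NK cells and for Slc13a3 in B cells.

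**Figure D2:**
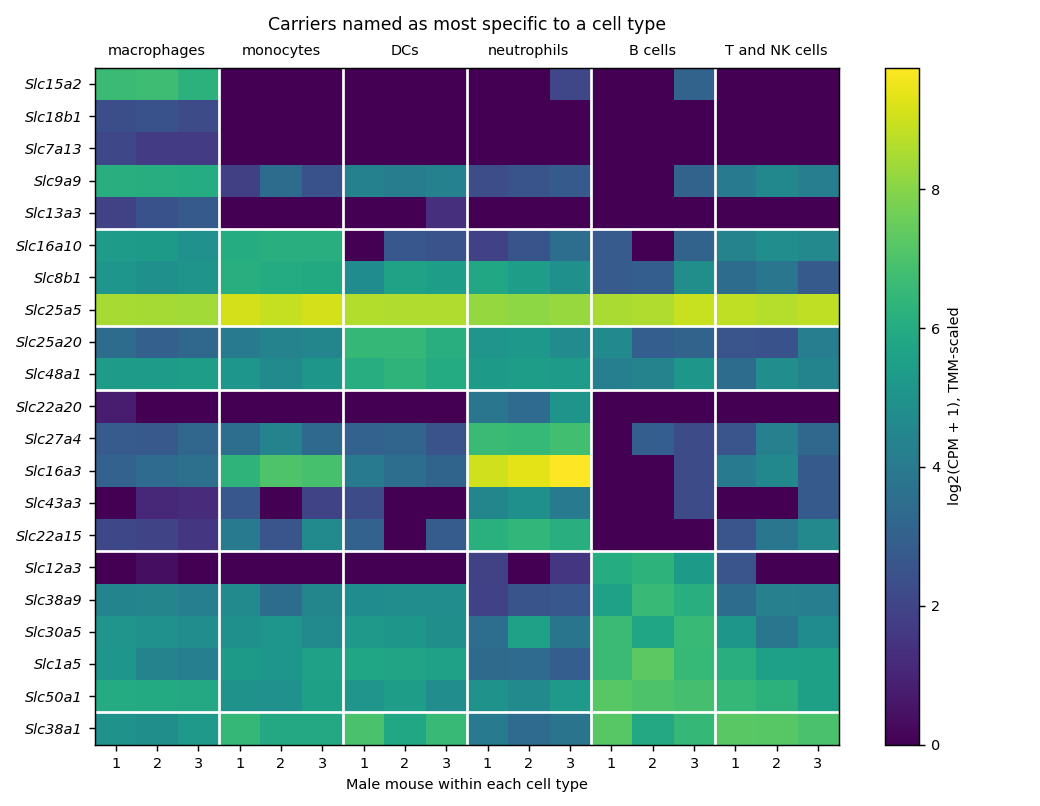
Level of the 21 carriers named as most specific to a type, in log2(CPM + 1) after TMM scaling, with 1 column for each of the 3 male mice in each of 6 cell types. The bright blocks on the diagonal are the values the carriers were chosen by; Slc15a2 has 1068 UMIs in macrophages and 0 in monocytes, DCs and T and NK cells, while Slc25a5 is high in every type.

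Among the macrophage clusters, Slc15a2 was uneven. It stood at 125 CPM of all UMIs in the largest cluster (745 cells, led by Ccl24, Pla2g2d and Egfl7), at 36.7 in the second (581 cells, led by Cxcl14 and Tnfsf9), at 51.6 in a cluster led by interferon-response genes (74 cells) and at 81.3 in one led by replication genes (79 cells). Slc9a9 followed the same order in the Ccl24 and Cxcl14 clusters, with 86.3 and 35.95 CPM.

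Neutrophils had 5 named carriers, of which Slc16a3 had the most UMIs. Slc16a3, the carrier through which glycolytic cells export lactate, stood at 530, 650 and 861 CPM in neutrophils and at 81.0, 132 and 118 CPM in monocytes, the next type, so the groups did not overlap. Of its 2308 UMIs 2000 were in neutrophils. Without the TMM factor the means were 404 and 126 CPM. In monocytes S100a8 was at 1.37% of its neutrophil level, and the part of neutrophil RNA in the monocyte value was not tested. Slc27a4, a fatty acid carrier that activates its cargo with coenzyme A, was at 99.8, 92.5 and 110 CPM in neutrophils and at 13.1 ± 5.70 CPM in monocytes. Slc22a15, a carrier of organic cations and zwitterions, was at 71.8, 87.8 and 70.7 CPM, against 14.97 ± 9.73 CPM in monocytes, 13.8 ± 8.99 CPM in T and NK cells, and no UMI in B cells. The organic anion carrier Slc22a20 was at 13.3, 9.49 and 32.4 CPM, with 64 of its 66 UMIs in neutrophils and 1 in macrophages. Neutrophils were at least 7.64-fold, 7.93-fold, 3.59-fold and 4.76-fold above monocytes, DCs, B cells and T and NK cells, which had none. Slc43a3, which carries purine nucleobases, was at 21.3, 28.5 and 14.9 CPM from 51 UMIs, out of 162 in all cells. Macrophages held 14, monocytes 4 and each remaining type at most 2. Most of the 162 UMIs thus lay in the 133 cells outside the 6 types, so Slc43a3 led in neutrophils only among these types. Its log2 ratio to the next type was 2.59, and 0.07 when the cells were clustered at resolution 0.3. At that resolution a cluster of 169 cells led by Elane, a gene of granule-forming precursors, had no name and was outside the 6 types. The cystine importer Slc7a11, also chosen after its values were seen, was at 79.8, 149 and 105 CPM in neutrophils and at 26.5 ± 15.4 CPM in monocytes.

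These carriers were not spread evenly over the 3 neutrophil clusters. Slc43a3 had 48 of its 51 neutrophil UMIs in a cluster of 65 cells led by Fcnb, Ms4a3 and Elane, genes of granule-forming precursors, at 31.7, 62.7 and 30.9 CPM in the 3 mice, here without TMM scaling. Slc16a3 went the other way. It was at 41.6, 39.9 and 45.7 CPM in that cluster, at 360, 220 and 353 in the cluster with Ly6g and Ltf (233 cells), and at 969, 1267 and 1240 in the cluster led by Asprv1 and Acod1 (267 cells). The values of Slc16a3 did not overlap between any of the 3 clusters. Slc27a4 was at 17.1 to 33.6 CPM in the Fcnb cluster and 52.7 to 123 in the other clusters, which overlapped each other, and Slc22a15 was at 19.2 to 48.2 in the Fcnb and Ly6g clusters and 58.7 to 129 in the Asprv1 cluster. The median cell of the 3 clusters held 20237, 10045 and 3186 UMIs, in that order, and the part of depth and RNA content in these differences was not tested.

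**Figure D3:**
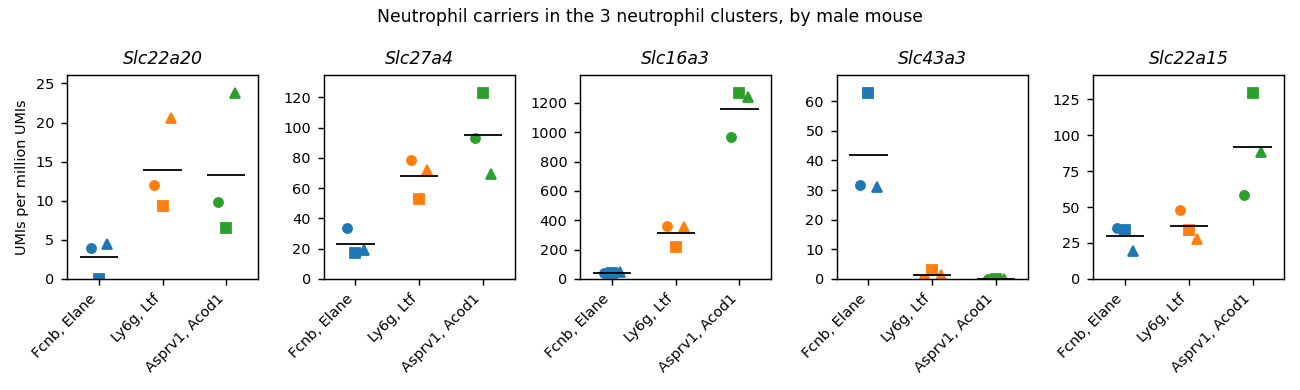
Unscaled CPM of the 5 neutrophil carriers in the 3 neutrophil clusters, named by 2 of their leading or defining genes. Each marker shape is 1 of 3 male mice and the bar is their mean; Slc16a3 goes from 39.9 to 45.7 in the Fcnb cluster to 969 to 1267 in the Asprv1 cluster, and Slc43a3 has no UMI in the latter.

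In B cells, the next highest type was DCs or T and NK cells for each of the 5 named carriers. The widest margin was that of Slc12a3, the thiazide-sensitive sodium-chloride cotransporter best known from the kidney, which was at 64.7, 77.4 and 38.5 CPM in B cells. It had 33 UMIs there, 5 in neutrophils, 1 in macrophages, 1 in T and NK cells and none in monocytes and DCs, above which B cells were at least 24.97-fold and 25.9-fold higher. The ratio to T and NK cells was 43.7, with an exact 95% interval of 7.32 to 1778 for counting error only, from UMIs pooled over mice. These values also chose the carrier, so the interval is a description and no test. Slc38a9, the lysosomal arginine sensor and carrier, was at 47.1, 96.7 and 69.2 CPM, with DCs next at 26.2 ± 0.392 CPM. Slc30a5, which loads zinc into the secretory pathway, was at 82.6 ± 26.9 CPM, lowest in mouse 2 at 51.6 CPM, with DCs next at 33.1 ± 4.65 CPM. Slc1a5, an exchanger of glutamine and other neutral amino acids, was at 116 ± 34.05 CPM, highest in mouse 2 at 155 CPM, beside 53.2 ± 13.9 CPM in T and NK cells, and the sugar carrier Slc50a1 at 147, 129 and 115 CPM beside 70.3 ± 22.2 CPM.

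T and NK cells had 1 carrier by the rule, the glutamine importer Slc38a1, at 154, 147 and 123 CPM. B cells at 97.8 ± 45.3 CPM and DCs at 90.7 ± 33.1 CPM came next, and the log2 ratio to B cells, 0.53 ± 0.65, was within its own spread over mice. The peptide carrier Slc15a3 had no UMI in T and NK cells, against 14 in B cells and 3398 in macrophages.

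By the rule, monocytes had 3 carriers and DCs 2, out of 3 and 7 that were highest there in each mouse. These types held 1093486 and 1326003 UMIs against 13118686 in macrophages, and the part of the minimum of 30 UMIs was not tested. In monocytes, Slc16a10, a carrier of aromatic amino acids, was at 65.3, 68.6 and 69.9 CPM, with macrophages next at 35.9 ± 5.22 CPM. The mitochondrial sodium/calcium exchanger Slc8b1 was at 70.6, 63.7 and 59.3 CPM, next to 42.4 ± 13.7 CPM in neutrophils. Slc25a5 was at 552, 475 and 553 CPM next to 434 ± 20.9 CPM in T and NK cells. The monocyte call of Slc8b1 turned when clusters were drawn more coarsely and that of Slc25a5 when cells were gated on markers, at log2 ratios of -0.20 and -0.08. In DCs, Slc25a20, the mitochondrial carnitine/acylcarnitine carrier that lets fatty acids be oxidised, was at 88.5, 90.3 and 69.8 CPM against 31.4 ± 5.40 CPM in neutrophils. The heme carrier Slc48a1 was at 66.4, 79.7 and 63.6 CPM in DCs against 40.8 ± 1.37 CPM in macrophages and 40.7 ± 2.06 CPM in neutrophils, and with coarser or finer clusters its log2 ratio turned to -1.15 and -0.66. The DC cluster of 99 cells had both Xcr1 and Cd209a among its leading genes. With coarser or finer clusters the DCs were 51 cells led by Xcr1. Cd209a was then among the leading genes of a monocyte cluster of 155 cells or a macrophage cluster of 111 cells. The part of this change in the turn of Slc48a1 was not tested.

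Macrophages and monocytes were set against each other in the same fit. Of the 65 carriers, 16 were called higher in macrophages and 15 lower, beside 20.2% and 17.9% of all genes. Without the TMM factor it was 10 higher and 17 lower. Slc7a8, a second exchanger of neutral amino acids and one named after its values were seen, had 887 UMIs in macrophages (72.6 ± 4.80 CPM) and 10 in monocytes, but also 36 in T and NK cells, where it was at 14.9, 89.2 and 37.3 CPM in the 3 mice. The 5 markers of basophils and mast cells were all detected in the T and NK cells and summed to between 2.87 and 1467 CPM there over the mice, and their part in the Slc7a8 level was not tested.

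The named carriers were then read in the female mice, whose cells chose neither the members nor the named carriers. Their cells were labelled by transfer from the male cells with Slc symbols left out, and since 15 monocytes were too few to sum per mouse, each of 5 types was set against the mean of the other 4. Of the 18 named carriers of these types, 13 were highest in their own type in 3 of 3 female mice, with monocytes left out of the comparison. The filter on low counts let 12 through, and 7 of these passed it only through their own type and so had to differ. They are given by their levels, with no p. The other 5 met the filter without their own type. Over all 5245 genes, 27.9% were called higher in macrophages, 22.7% in DCs, 26.3% in neutrophils, 16.8% in B cells and 17.2% in T and NK cells. Slc15a2 was at 109, 104 and 114 CPM in the macrophages of the 3 female mice and had 1 UMI in neutrophils and none in DCs, B cells and T and NK cells, above which macrophages were at least 31.6-fold, 14.9-fold and 19.1-fold higher. Slc9a9 was at 74.3, 48.3 and 68.7 CPM in macrophages, at least 8.74-fold above B cells, which had none, and at 17.5 ± 6.26 CPM in T and NK cells. The other 3 macrophage carriers were too scarce for the test. Slc13a3 was at 5.12, 7.25 and 7.49 CPM and Slc18b1 at 1.92, 3.22 and 5.62 CPM, each highest in macrophages in 2 of the 3 mice. Slc7a13 was at 4.48, 4.83 and 1.25 CPM, highest there in 3 of 3.

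For neutrophils, female Slc16a3 was at 564, 410 and 392 CPM, with DCs next at 22.7 ± 8.40 CPM. Slc27a4 was at 81.0, 150 and 134 CPM, with macrophages next at 7.57 ± 2.69 CPM, and Slc22a15 at 37.1, 60.04 and 69.8 CPM, with T and NK cells next at 14.7 ± 12.2 CPM. All 3 were highest in neutrophils in 3 of 3 female mice, among these 5 types. Monocytes, the next type for all 3 in the male mice, were not among them, so the female margins do not cover that type. In DCs, Slc25a20 was at 74.2, 46.99 and 49.1 CPM, with neutrophils next at 15.2 ± 8.53 CPM. Slc48a1 was at 74.2, 50.9 and 91.8 CPM in DCs (log2 difference from the mean of the other 4 types 1.27 ± 0.28, SE, edgeR's quasi-likelihood test, adjusted p over all genes by Benjamini and Hochberg = 0.000284), a call that was lost without mouse F3 (adjusted p = 0.0611). The female DC labels follow the male DC cluster of 99 cells. The coarser and finer clusters that turned the male ratio of Slc48a1 were not tried in the female mice.

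For B cells, female Slc1a5 was at 120, 166 and 114 CPM (2.52 ± 0.36, edgeR adjusted p = 1.91e-07), Slc38a9 at 56.96, 93.7 and 100.2 CPM, with macrophages next at 19.3 ± 2.10 CPM, and Slc30a5 at 62.7, 93.7 and 50.1 CPM (1.43 ± 0.37, edgeR adjusted p = 0.00231). Slc50a1, at 96.8, 166 and 78.7 CPM, was highest in B cells in 2 of the 3 mice, with T and NK cells at 111 CPM on average. Its B cell call (0.99 ± 0.28, edgeR adjusted p = 0.00469) was lost without mouse F2 (adjusted p = 0.178). T and NK cells were called higher as well (1.02 ± 0.25, edgeR adjusted p = 0.00139), so the call does not set B cells apart from them. Slc12a3 was too scarce for the test. Its 17 UMIs in female B cells put it at 62.7, 31.2 and 21.5 CPM, at least 56.5-fold above macrophages, 11.2-fold above DCs and 8.75-fold above neutrophils, which had none. Slc38a1 was at 190, 128 and 136 CPM in T and NK cells (1.85 ± 0.26, edgeR adjusted p = 1.72e-07). DCs at 94.3 ± 30.3 CPM and B cells at 78.0 ± 16.8 CPM came next, and DCs were called higher as well (0.98 ± 0.26, edgeR adjusted p = 0.00252). Of the scarce neutrophil pair, Slc22a20 and Slc43a3 had 9 and 7 UMIs in female neutrophils and none in 1 of the 3 mice. In the 15 female monocytes, Slc16a10 had 5 UMIs, Slc8b1 12 and Slc25a5 66 of 129340, and no test was made. For Slc16a10 that is 38.7 CPM without scaling, beside 43.9 ± 3.96 scaled CPM in female macrophages. The male order, with monocytes above macrophages, did not show in these few UMIs.

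**Figure D4:**
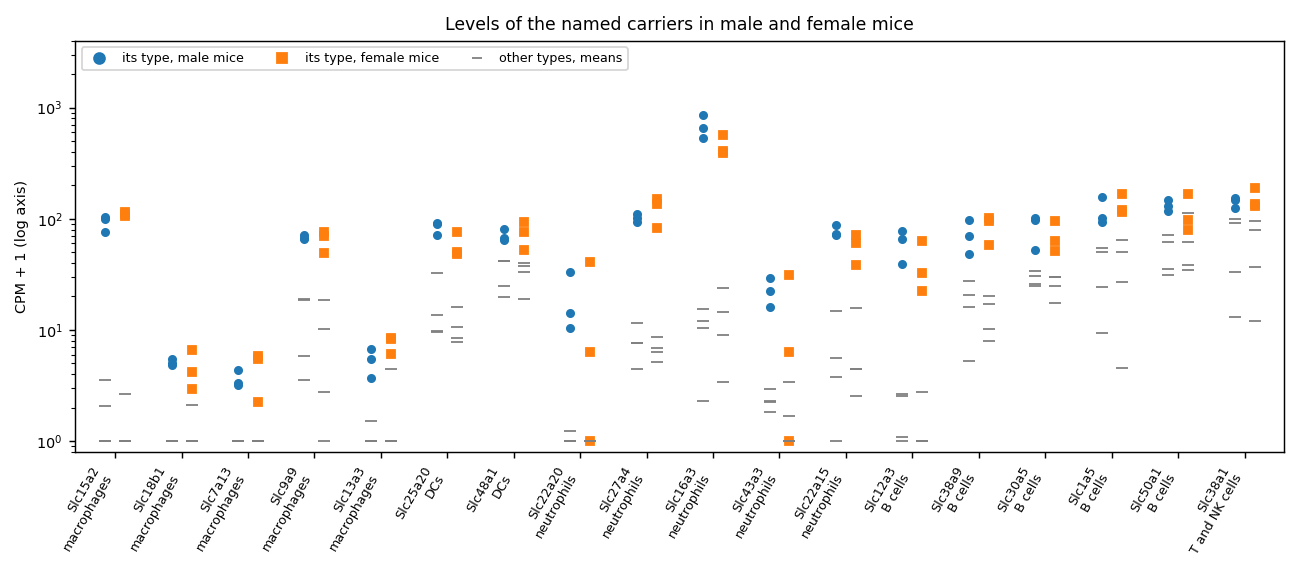
Level of the 18 named carriers of 5 types in CPM + 1 on a log axis, with circles for the 3 male mice and squares for the 3 female mice in the carrier's own type, and dashes for the means of the other types, monocytes left out. The female squares lie at 104 to 114 CPM for Slc15a2 and at 392 to 564 CPM for Slc16a3, above the dashes of the other types, whereas Slc22a20 and Slc43a3 fall to 0 in 1 female mouse.

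A direct test of the difference between sexes in each contrast called 0 carriers among the 67 to 72 tested (edgeR's quasi-likelihood test, lowest adjusted p 0.528). At an unadjusted p under 0.05 there were 1 to 6 carriers per contrast, and the share of all genes at that threshold is not given here. Male types came from clusters and female types from label transfer, so sex and the way of labelling cannot be told apart. Of all 6193 to 6209 genes, it called 1 in DCs and 0 in the other contrasts.

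Macrophages were then divided by the UMIs of Fcrls and Ccr2, neither of which is a carrier. Fcrls encodes an Fc receptor-like protein of tissue-resident macrophages and Ccr2 the chemokine receptor by which monocytes enter tissue. There were 670 cells with Fcrls UMIs alone (Fcrls-only), 164 with Ccr2 UMIs alone (Ccr2-only), 578 with both and 78 with neither. The classes depended on depth. With cells thinned to 2000 UMIs, which left out 40 macrophages under that depth, they held 704, 241, 173 and 332 cells in that order. The median cell held 9033 UMIs among those with both and 6278 among those with neither. Of 66 carriers tested, 4 were higher in Fcrls-only cells and 6 in Ccr2-only cells, which is 6.06% and 9.09%, beside 4.46% and 5.78% of all 5850 genes. The direction of the 10 was the same in 3 of 3 mice.

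Slc15a2 led. It was at 139, 123 and 96.2 CPM in the Fcrls-only cells of mice 1, 2 and 3 and at 44.6, 20.04 and 14.7 CPM in their Ccr2-only cells, with no overlap (log2 difference 2.47 ± 0.29, SE, edgeR adjusted p = 4.35e-06). Cells with both stood between, at 66.8 ± 7.01 CPM, and cells with neither at 58.3 ± 58.0 CPM. Slc9a9 was at 81.3, 81.4 and 74.7 CPM against 22.3, 17.2 and 37.5 CPM (1.43 ± 0.24, edgeR adjusted p = 0.000292), again with cells with both in between. A pair of amino acid carriers was also higher in Fcrls-only cells. These were Slc43a2, at 62.1, 53.6 and 69.6 against 27.9, 45.8 and 32.1 CPM (edgeR adjusted p = 0.0266), and Slc7a7, which pairs with Slc3a2 to exchange basic amino acids, at 60.6, 69.2 and 65.96 against 33.5, 54.4 and 33.5 CPM (edgeR adjusted p = 0.0368).

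On the Ccr2-only side stood 3 carriers of neutral amino acids. Slc1a5 was at 44.6, 40.1 and 25.4 CPM in Ccr2-only cells and at 19.2, 10.6 and 10.8 CPM in Fcrls-only cells (log2 difference -1.45 ± 0.34), and since it passed the filter only through Ccr2-only cells it is given with no p. Slc38a1 was at 55.8, 42.9 and 57.6 against 16.3, 18.2 and 27.6 CPM (-1.24 ± 0.26, edgeR adjusted p = 0.00263), and Slc38a2 at 290, 180 and 258 against 158, 169 and 166 CPM (-0.54 ± 0.15, edgeR adjusted p = 0.0258). The other 2 members of the peptide family went opposite to Slc15a2. Slc15a3 was at 435, 329 and 337 CPM in Ccr2-only cells and 223, 266 and 215 CPM in Fcrls-only cells (-0.61 ± 0.14, edgeR adjusted p = 0.00596), and Slc15a4, also lysosomal, at 55.8, 57.2 and 72.3 against 34.02, 41.5 and 27.3 CPM (-0.94 ± 0.23, edgeR adjusted p = 0.00849). Slc8b1 was at 44.6, 37.2 and 48.2 against 26.6, 23.3 and 26.7 CPM (-0.80 ± 0.25, edgeR adjusted p = 0.0394). In each of these 6, the values of the 2 subsets did not overlap, but the test and the same direction in each mouse had chosen them. The share of all genes without overlap is not given here, so this is a description only.

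**Figure D5:**
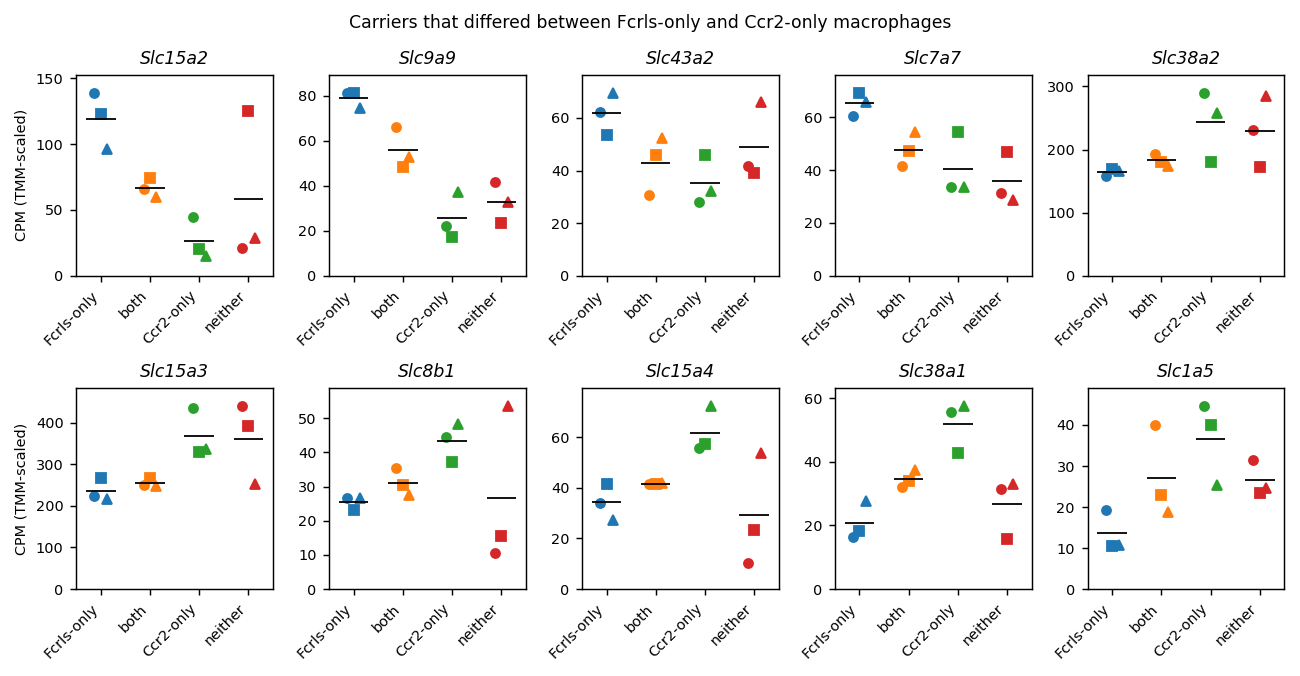
Level in TMM-scaled CPM of the 10 carriers that differed between Fcrls-only and Ccr2-only macrophages, with both-positive and double-negative cells beside them. Each marker shape is 1 of 3 male mice and the bar is their mean; Slc15a2 runs from 96.2 to 139 CPM in Fcrls-only cells to 14.7 to 44.6 CPM in Ccr2-only cells, and cells with both lie between for Slc15a2 and Slc9a9.

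The count of 10 fell to 5 without mouse 1, to 8 without mouse 2 and to 4 without mouse 3, and DESeq2 called 5. Slc15a2, Slc9a9 and Slc38a1 passed in 11 of 11 alternatives, and Slc8b1 in 3. Slc1a5, with its limit from the filter, passed in 10, Slc15a3, Slc15a4 and Slc43a2 each in 8, Slc7a7 in 7 and Slc38a2 in 6. The female mice were tested in the same way, and there Slc15a2 was at 133, 126 and 147 CPM against 12.99, 18.5 and 76.9 CPM (log2 difference 1.87 ± 0.36) and Slc9a9 at 95.5, 49.5 and 81.0 against 45.5, 27.8 and 13.98 CPM (1.37 ± 0.43). Both passed the filter on low counts only through Fcrls-only cells, so no p is given and their calls are no test. Under the same limit, Slc15a2 was called in 4 of 5 alternatives and Slc9a9 in 2. They were the 2 of the 44 carriers tested that were called higher in Fcrls-only cells, or 4.55%, and 0 were called lower. Of all genes, 3.56% and 4.12% were called higher and lower. At an unadjusted p under 0.05 there were 12 of the 44, and the share of all genes at that threshold is not given here. Slc38a1 had a log2 difference of -1.25 ± 0.41 (edgeR adjusted p = 0.0597), and Slc15a4 was at 46.8 ± 14.2 against 40.9 ± 14.2 CPM, with the sign turned. Monocyte markers other than Ccr2 moved with the gate: their 7 genes summed to 47.3 to 83.3 CPM in the Fcrls-only cells of the male mice and to 111 to 359 CPM in the Ccr2-only cells, with 7 and 6 of the 7 detected. The dissociation genes Fos, Jun, Atf3 and Rhob took 0.620% to 1.101% of the UMIs in Fcrls-only cells and 0.346% to 0.353% in Ccr2-only cells. The median cell held 8483.5 UMIs in Fcrls-only and 7999.5 in Ccr2-only cells, and the part of any of these in the carriers was not tested.

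Related transporters with other symbols were read in the same fits from a list of 42, of which 41 were in the matrix. Between the macrophage subsets, 2 of the 23 tested were called higher in Fcrls-only cells. Slco2b1, an importer of organic anions, was at 96.1, 116 and 104 against 78.1, 60.1 and 60.2 CPM (edgeR adjusted p = 0.00919). Mfsd11 was at 59.2, 37.4 and 59.1 against 16.7, 11.45 and 32.1 CPM. Among those called higher in Ccr2-only cells were Emb, a chaperone of lactate carriers (39.03, 65.8 and 44.2 against 17.8, 15.7 and 12.6 CPM), and Pqlc3. For these genes the filter on low counts was not rechecked without the subset where they were high. Only Slco2b1, at 60.1 CPM or more in each sum, is therefore given with a p.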

How the data were processed

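Raw UMI counts were deposited by the authors for 2 matrices, 1 of male cells and 1 of 4395 barcodes with 6 hashtags; the submitters' processing notes name Cell Ranger, Seurat and mm10. Per the study's methods, cells of 200 to 5000 genes and under 5% mitochondrial UMIs were kept. Here, mouse identities came from the hashtag counts, cells were clustered in Seurat 5.3.0 (15 components, resolution 0.5) without Slc symbols, and clusters were named from marker genes by a rule written after the clusters were seen. UMIs were summed per mouse and type and tested in edgeR 4.0.16 (R 4.3.3; TMM, filterByExpr, quasi-likelihood, Benjamini-Hochberg, threshold 0.05). Sums held 3 mice per type. A most specific carrier had at least 30 UMIs and the highest CPM in each mouse, up to 5 per type by log2 ratio of CPM + 1 to the next type; between subsets, up to 10 per direction were named. The 10 members with most UMIs, the leading member of each function group of 5 or more, Slc2a1 and Slc7a5 were named too; a few results of these lists are not reported here. Members and lists were chosen with earlier results of these data known. Hashtags are mice, so numbers pair the sums: deviations of the same mouse correlated at 0.0141 on average over types (-0.0409 to 0.124) and at 0.0431 to 0.181 over subsets. Alternatives without the TMM factor and the female subset test were added after seeing the data. The test between sexes was not among the planned tests. Depth was 4239463 to 13508078 UMIs per male mouse; intervals and floors cover counting error only.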

Additional observations from a re-analysis of the deposited data

How the results depend on the processing

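Without the filter on low counts, the counts rose to 86 carriers in macrophages, 82 in neutrophils and 51 for macrophages against monocytes, from 34, 48 and 31, as more genes were tested. The share of all genes called under each alternative is not given here, so the counts in this section describe no trait of carriers. For Fcrls-only against Ccr2-only macrophages, DESeq2's Wald test called 5 carriers where edgeR called 10, and leaving out 1 mouse gave 4 to 8. In the female mice, leaving out 1 mouse gave 9 to 14 carriers in T and NK cells and 12 to 17 in DCs, from 17 and 20 with all mice. Between the female macrophage subsets it gave 0 to 2, from 2, with 1 under DESeq2 size factors and 3 with the mouse as a replicate block. The replicate block moved the male subset count from 10 to 12 and changed no other count by over 1.5 times. Single carriers that turned were Slc8b1 in monocytes (log2 ratio to the next type -0.20 at resolution 0.3), Slc48a1 in DCs (-1.15 at resolution 0.3 and -0.66 at 0.8), Slc25a5 in monocytes (-0.08 with marker gates per cell), and, between the female subsets, Slc15a4 (0.11 with all mice, -0.01 without mouse F1, -0.24 to 0.67 over the mice left out) and Slc15a3 (-0.72 to 0.02, turned without F3); the cause was not tested. Gating on cells thinned to 2000 UMIs gave 7 calls. The alternatives also covered ratios and log2 differences of single carriers and the counts called higher or lower. Of these values, 576 stayed the same, 63 moved, 33 lost the call, 1 gained it and 7 turned. A ratio moved if it changed by its spread over mice or more, and a count if it changed by over 1.5 times or to or from 0. A log2 difference stayed the same if it kept its direction and its side of the threshold. Of 198 carriers, 133 were too scarce for the test between types, so that a difference in these was not detectable at this depth.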
